A study of Mus musculus with 4 samples.

Results

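The imprinted genes of the Snrpn-Ube3a domain on chromosome 7 were examined in F123-ESCs. The 8 genes Snrpn, Snurf, Ndn, Magel2, Mkrn3, Ube3a, Peg12 and Atp10a were taken by their symbols from a table of 24026 genes, and all 8 are listed in it. F123 is a male mouse embryonic stem cell line from a cross of S129 and CAST mice, so that each autosome has a maternal S129 copy and a paternal CAST copy. The 4 libraries, replicates 1 to 4, are all of this one line with the genotype S129/CAST, untreated, grown with LIF on feeder fibroblasts and passaged without feeders before harvest. PolyA-enriched RNA was sequenced, and reads that cover a SNP between the strains were assigned to S129 or to CAST, so that each gene has an RPKM (reads per kilobase of gene, scaled to sequencing depth) of each allele in each library. Nothing in the labels says that the libraries are of separate cultures, so the p-values measure only the spread between these libraries. With a single direction of the cross and a single line, an effect of the parent of origin and an effect of the strain cannot be told apart.

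Imprinted genes are transcribed from the copy of one parent, set by DNA methylation that the germ cells leave on an imprinting control region. In this domain the control region lies at the shared first exon of Snurf and Snrpn and is methylated on the maternal copy. Snrpn, Snurf, Ndn, Magel2, Mkrn3 and Peg12 are known as paternally expressed genes, and Ube3a as a gene whose maternal copy alone is active in neurons, while both copies are active in most other cells. The long noncoding RNA Snhg14 runs from the Snrpn side into Ube3a in the antisense direction, and carries small nucleolar RNAs in its introns. In humans, loss of the paternal copy of the domain gives Prader-Willi syndrome and loss of maternal UBE3A gives Angelman syndrome.

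The start sites of the members differ in sequence. RefSeq (GRCm38.p6) gave 10 windows for the 8 members, each from 250 bases before to 50 bases after an annotated start. The 5 windows printed here are those of the control region and of members with contrasting allele values. All are 5′ to 3′ on the strand of the gene, with every CG dinucleotide, the site of DNA methylation, in capitals.
Snurf, chr7:60005150-60005449, minus strand: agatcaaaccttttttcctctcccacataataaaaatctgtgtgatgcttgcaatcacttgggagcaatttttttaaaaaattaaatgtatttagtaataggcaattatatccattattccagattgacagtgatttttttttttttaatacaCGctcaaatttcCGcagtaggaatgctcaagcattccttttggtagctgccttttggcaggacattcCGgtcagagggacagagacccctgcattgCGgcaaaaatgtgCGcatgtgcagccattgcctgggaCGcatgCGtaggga
Ndn, chr7:62348027-62348326, plus strand: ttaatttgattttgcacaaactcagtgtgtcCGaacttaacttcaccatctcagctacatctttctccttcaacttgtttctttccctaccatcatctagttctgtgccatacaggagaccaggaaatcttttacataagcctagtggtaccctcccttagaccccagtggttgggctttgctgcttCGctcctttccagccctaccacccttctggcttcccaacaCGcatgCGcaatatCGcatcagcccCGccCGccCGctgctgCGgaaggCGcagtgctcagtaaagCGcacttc
Peg12, chr7:62464461-62464760, minus strand: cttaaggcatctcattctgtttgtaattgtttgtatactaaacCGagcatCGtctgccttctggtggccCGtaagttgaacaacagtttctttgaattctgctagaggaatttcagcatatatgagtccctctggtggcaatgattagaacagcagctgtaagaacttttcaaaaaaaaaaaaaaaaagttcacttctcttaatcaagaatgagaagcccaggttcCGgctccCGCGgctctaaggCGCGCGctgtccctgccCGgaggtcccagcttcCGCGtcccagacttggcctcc
Mkrn3, chr7:62420104-62420403, minus strand: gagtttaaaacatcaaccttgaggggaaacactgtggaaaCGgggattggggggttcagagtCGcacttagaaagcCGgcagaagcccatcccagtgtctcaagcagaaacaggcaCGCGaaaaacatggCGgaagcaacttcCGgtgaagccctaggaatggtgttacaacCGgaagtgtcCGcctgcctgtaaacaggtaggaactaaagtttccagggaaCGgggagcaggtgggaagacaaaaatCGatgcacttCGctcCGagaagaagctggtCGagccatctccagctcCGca
Ube3a, chr7:59228500-59228799, plus strand: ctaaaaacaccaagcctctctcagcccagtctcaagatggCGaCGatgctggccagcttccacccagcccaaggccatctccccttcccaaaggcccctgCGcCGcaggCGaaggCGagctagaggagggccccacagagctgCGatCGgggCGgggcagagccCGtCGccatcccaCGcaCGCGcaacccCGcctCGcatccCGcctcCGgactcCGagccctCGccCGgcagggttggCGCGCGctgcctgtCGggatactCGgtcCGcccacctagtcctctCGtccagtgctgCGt

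The Snurf window is also one of the 4 windows of Snrpn, and it held 7 CG dinucleotides, the median of all 32817 windows of this length. The other 3 Snrpn windows held 2, 3 and 4. Ndn had 11, Peg12 had 12, Mkrn3 had 15, Magel2 had 10 and Atp10a had 20. Ube3a had 29, a number that 12.9% of all windows reached. Of 3 motifs searched on both strands, GCATGC, a core of the NRF1 motif, was present in all 4 Snrpn windows and in that of Ndn, against 7.93% of all windows. Apart from the Snurf window, the Snrpn windows hold this motif within long stretches of nearly the same sequence. They are therefore not independent, and their number cannot be read against that share. TGCCGC, which ZFP57 binds when methylated, was present in the Snurf window, against 11.6% of all windows. ATGGCG, a core of the YY1 motif, was present once in Mkrn3 and 2 times in Ube3a, against 8.92% of all windows. The annotation used for the genes starts Ndn and Atp10a upstream of their RefSeq windows, so these windows lie inside the genes.

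The total of an allele in a library was 16716721 to 28772351 reads, with replicate 4 the lowest on both alleles. All 7 markers of embryonic stem cells had at least 1 RPKM, with a summed level of 1171 to 1483 RPKM in the libraries. Of 7 feeder fibroblast markers, 5 had at least 1 RPKM, with a summed level of 178 to 224 RPKM, most of it from Col1a2 with 166 RPKM, while Lum stood at 0.0462 and Dcn at 0.659 RPKM. RPKM also depends on the gene length used, and in reads Col1a2 was less far ahead, with 26634 beside 9220 of Postn. The Col1a2 reads lay on both alleles, with 180 RPKM on S129 and 151 RPKM on CAST. Of 7 neuron markers, Tubb3, Map2 and Gap43 had at least 1 RPKM and Rbfox3 stood at 0.0505 RPKM, with a summed level of 45.4 to 50.9 RPKM. The part of feeder RNA in the allele values was not tested. On X-linked genes, which a male line holds only on S129, 0.112% to 0.132% of the reads of a library were assigned to CAST. Wrong assignment of CAST reads to S129 was not measured.

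Among the 8 members, Ndn, Peg12 and Atp10a were higher on the paternal CAST allele, by 2.13-fold, 1.86-fold and 1.69-fold of the mean RPKM. Ube3a and Mkrn3 passed no test in either direction. Magel2 and Snrpn had a sum of both alleles below 1 RPKM and were left out of the test, and Snurf was listed at 0. Alleles were compared by limma on the difference of log2(RPKM+0.1) within each library, S129 minus CAST, with Benjamini-Hochberg adjustment over the 13341 genes whose allele RPKM add up to 1 or more. Thus 3 of 5 tested members were called higher on CAST and 0 higher on S129 at an adjusted p under 0.05, whereas 31.3% of all genes tested were called higher on CAST and 31.4% higher on S129, or 62.7% in either direction. The median difference was -0.75 over the 5 members and -0.0034 over all genes tested. The 3 members called on CAST had RPKM ranges of the alleles that did not overlap. The share of such genes among all genes called was not counted, so this adds no support to the calls.

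**Figure D1:**
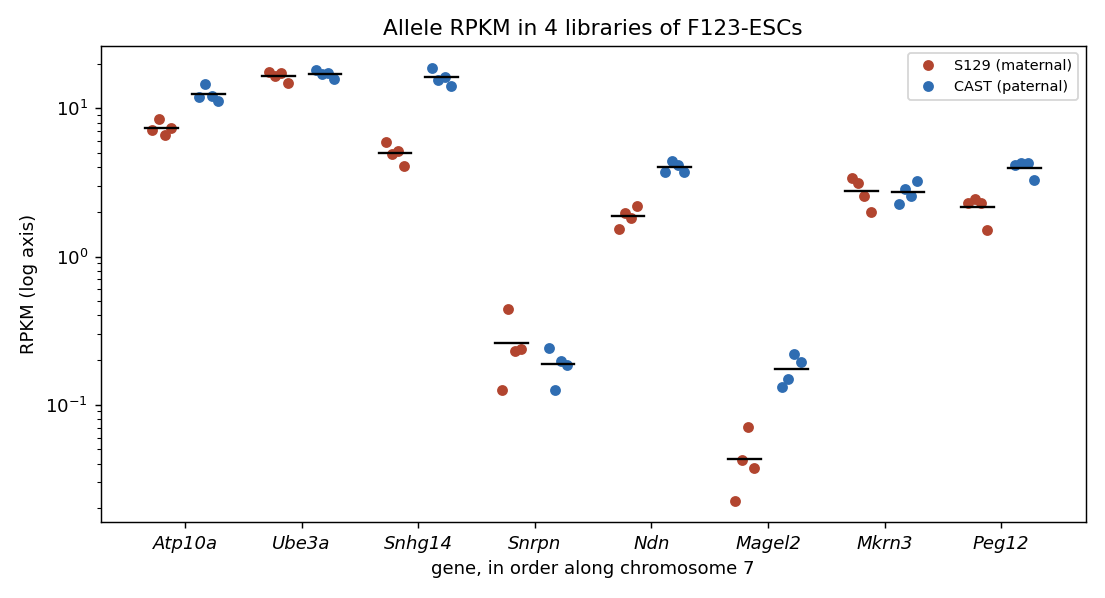
RPKM on a log axis of 7 members and of Snhg14, in their order on chromosome 7, for S129 (red) and CAST (blue). Each point is one of the 4 libraries and the short line is the mean. The alleles are apart in Atp10a, Snhg14, Ndn, Magel2 and Peg12, and overlap in Ube3a, Snrpn and Mkrn3. Snurf, at 0 in every column, is not drawn.

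Snrpn (ENSMUSG00000102252; chromosome 7, 59982495 to 60140219, minus strand, mm10) encodes SmN, a core protein of spliceosomal small nuclear ribonucleoproteins found mainly in brain. On S129 it had 0.126, 0.444, 0.232 and 0.238 RPKM in replicates 1 to 4, from 7, 22, 11 and 8 reads. On CAST it had 0.242, 0.126, 0.197 and 0.186 RPKM, from 13, 6, 9 and 6 reads. The alleles overlapped, and the CAST allele was the higher in replicate 1 and the lower in the others. Over all libraries 58.5% of its 82 reads were assigned to S129 (exact 95% binomial interval 47.1% to 69.3%, which covers counting error only), an interval that includes even alleles and lies above the shares of Ndn, Magel2, Peg12 and Atp10a. Without a filter on low values the difference was 0.27 on the log2(RPKM+0.1) scale (adjusted p = 0.545 from limma), and it was -0.065 without replicate 2.

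Snurf (ENSMUSG00000102627; 59995449 to 60005049, minus strand) encodes a small basic protein from the 5′ part of the transcript that it shares with Snrpn. It was listed at 0 in all 8 columns. All 216 bp of its exons lie within exons of Snrpn and of the annotated gene Gm38393, on the same strand. Of the 1932 bp of the Snrpn transcript behind its RPKM, 589 bp are shared with Gm38393, which is not in the table. The Snrpn transcript also has near copies elsewhere, such as Gm5802, with 95.3% identity over 700 bp, and Snrpb, with 80.9% over 687 bp. How reads on shared exons and near copies were counted is not given in the sources used here, so the values of Snrpn and Snurf are uncertain. Gm38393 and Gm5802 were chosen after the overlaps were computed. Snrpb, the ubiquitous paralog of Snrpn, had 61.2 ± 4.1 RPKM (SD, n = 4) as the mean of both alleles, beside 0.224 ± 0.043 RPKM (SD, n = 4) of Snrpn.

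Ndn (ENSMUSG00000033585; 62346569 to 62350262, plus strand) encodes necdin, a MAGE family protein that restrains cell growth in neurons, from a single exon. On S129 it had 1.54, 1.97, 1.81 and 2.21 RPKM in replicates 1 to 4. On CAST it had 3.70, 4.43, 4.16 and 3.74 RPKM. Every CAST value was above every S129 value. The difference was -1.06 on the log2(RPKM+0.1) scale (SE 0.095, adjusted p = 0.000959 from limma). Behind these values stood 2035 reads, of which 32.3% were assigned to S129 (exact 95% interval 30.3% to 34.4%). The share was 30.1%, 31.7% and 31.1% in replicates 1 to 3 and 38.1% in replicate 4.

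Magel2 (ENSMUSG00000056972; 62377010 to 62381640, plus strand), a MAGE family gene whose protein acts with TRIM27 and USP7 on the WASH complex of endosomes, had few reads. S129 had 3, 5, 8 and 3 reads in replicates 1 to 4 and CAST had 17, 17, 24 and 15 reads. In RPKM, this was 0.0430 ± 0.020 on S129 and 0.174 ± 0.040 on CAST (SD, n = 4 each). The CAST values did not overlap those of S129. Of its 92 reads, 20.7% were assigned to S129 (exact 95% interval 12.9% to 30.4%). With all genes above 0 kept in the fit, Magel2 was called higher on CAST (log2 difference -0.93, adjusted p = 0.000851 from limma), which makes 4 members called on CAST. In that fit, 4169 of 20243 genes were called higher on CAST and 4471 higher on S129. On the log2(RPKM+0.1) scale the difference of Magel2 is understated, since its values are close to the 0.1 RPKM added.

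Mkrn3 (ENSMUSG00000070527; 62417593 to 62420139, minus strand), an intronless gene for a makorin RING finger ubiquitin ligase known as a brake on puberty, had no called difference. On S129 it had 3.41, 3.12, 2.56 and 2.01 RPKM in replicates 1 to 4. On CAST it had 2.27, 2.86, 2.58 and 3.24 RPKM. The alleles overlapped, with S129 the higher in replicates 1 and 2 and CAST the higher in replicates 3 and 4. The difference was 0.0044 (SE 0.21, adjusted p = 0.987 from limma). It had no stable direction, at -0.18 without replicate 1, -0.035 without replicate 2 and 0.23 without replicate 4. Its S129 share was 52.6% of 1336 reads (exact 95% interval 49.9% to 55.3%) and ran from 39.2% to 60.8% between libraries. The exact 95% intervals of counting error did not overlap between replicate 1, with 55.9% to 65.6%, and replicate 4, with 32.8% to 45.9%.

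Peg12 (ENSMUSG00000070526; 62461871 to 62464510, minus strand), also called Frat3, encodes a protein that binds GSK3 in the Wnt pathway and lies at the distal end of the cluster. The S129 allele had 2.30, 2.45, 2.31 and 1.50 RPKM in replicates 1 to 4. The CAST allele had 4.12, 4.26, 4.26 and 3.31 RPKM. No S129 value reached a CAST value, and replicate 4 was the lowest on both alleles. The difference was -0.88 (SE 0.065, adjusted p = 0.000523 from limma), and 36.1% of 1552 reads were assigned to S129 (exact 95% interval 33.7% to 38.5%). Its transcript has 85.4% identity to Frat1 over 2537 bp, and how reads that fit both were treated is not given in the sources used here.

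The 4 intronless genes from Ndn to Peg12 lie within a short stretch, with gaps of 26.7, 36.0 and 41.7 kb, and are 2206 kb from Snrpn. Within it, the allele differences of Ndn and Peg12 differed by -0.18 ± 0.36 (SD, n = 4 libraries; exact sign-flip test, two-sided as all such tests here, p = 0.50). That of Ndn was below that of Mkrn3 in 4 of 4 libraries, by -1.06 ± 0.72 (SD, n = 4; exact sign-flip test, p = 0.125, adjusted p = 0.143 over the 8 pairs compared). Here 0.125 is the smallest p that 4 libraries allow, so no pair can pass the threshold, and 7 of the 8 pairs were chosen after seeing the values.

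Snhg14 (ENSMUSG00000100826; 59307924 to 59975759, minus strand), the noncoding RNA between Snrpn and Ube3a, was also higher on CAST, with a log2 difference below those of the 5 tested members. Its S129 values were 5.92, 4.94, 5.13 and 4.09 RPKM in replicates 1 to 4. Its CAST values were 18.9, 15.5, 16.3 and 14.2 RPKM. The alleles were apart in every library, by 3.23-fold of the means. The difference was -1.68 (SE 0.039, adjusted p = 1.77e-05 from limma), and 24.4% of 7509 reads were assigned to S129 (exact 95% interval 23.4% to 25.4%). The difference of Ndn lay above that of Snhg14 in 4 of 4 libraries, by 0.62 ± 0.28 (SD, n = 4; exact sign-flip test, p = 0.125, adjusted p = 0.143).

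The transcript of Snhg14 behind its RPKM shares 1803 of its 3708 bp with exons of Ube3a on the opposite strand. The libraries were made with a stranded kit, but whether genes were counted by strand is not given in the sources used here. If they were not, reads of Snhg14 and of the Ube3a exons that it overlaps cannot be told apart. Of the noncoding RNAs of the domain, 20 of 22 listed names are in the table, 16 of them at 0 in every column, among them all Mir344 rows, Snord64 and both Snord116 rows. Of the small nucleolar RNA rows inside Snhg14, Gm22496, chosen after its values were seen, had 12 reads on CAST and 0 on S129, which allows an S129 share of up to 26.5% (exact 95% interval). From Atp10a to Peg12 the table holds 30 rows over 3808345 bp, of which 19 are at 0 in every column and 7 reach 1 RPKM in the sum of both alleles. Most of these 19 are microRNA or small nucleolar RNA rows. PolyA-enriched libraries are not made to capture such small RNAs, so a 0 there does not show that a row is silent.

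Ube3a (ENSMUSG00000025326; 59228750 to 59311536, plus strand), the gene for the E3 ubiquitin ligase E6AP, had the highest level among the members and nearly equal alleles. The maternal S129 copy gave 17.6, 16.5, 17.3 and 14.8 RPKM in replicates 1 to 4. The paternal CAST copy gave 18.2, 17.0, 17.4 and 15.7 RPKM. The ranges of the alleles overlapped, although CAST was slightly the higher in each library. The difference was -0.046 (SE 0.031, adjusted p = 0.253 from limma), and its sign turned to 0.0091 when raw reads were used with no division by the allele totals. Of 12496 reads, 50.2% were assigned to S129 (exact 95% interval 49.3% to 51.1%), and the share ran only from 49.6% to 50.8% between libraries. The Ube3a transcript behind its RPKM shares 987 bp with Gm44560 and 567 bp with 9330162G02Rik, both on the opposite strand and not in the table. If genes were not counted by strand, reads of these could be among those of Ube3a.

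Atp10a (ENSMUSG00000025324; 58656166 to 58829420, plus strand) encodes a phospholipid flippase, and its imprint is known to vary between strains and tissues. On S129 it had 7.12, 8.44, 6.57 and 7.35 RPKM in replicates 1 to 4. On CAST it had 11.8, 14.7, 12.1 and 11.2 RPKM. All CAST values lay above all S129 values. The difference was -0.75 (SE 0.055, adjusted p = 0.000522 from limma), and 37.9% of 1291 reads were assigned to S129 (exact 95% interval 35.2% to 40.6%). The difference of Ube3a, the next gene at 399 kb, lay above that of Atp10a in 4 of 4 libraries, by 0.70 ± 0.14 (SD, n = 4; exact sign-flip test, p = 0.125, adjusted p = 0.143). Both genes are often listed as maternally expressed, and neither was called higher on the maternal allele in these cells.

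By the mean of both alleles, the order of the deposited levels was Ube3a with 16.8 ± 1.2 RPKM, Atp10a with 9.92 ± 1.1, Peg12 with 3.07 ± 0.44, Ndn with 2.95 ± 0.24 and Mkrn3 with 2.75 ± 0.19 (SD, n = 4 each). Snrpn followed with 0.224 ± 0.043 RPKM and Magel2 with 0.108 ± 0.029 RPKM (SD, n = 4 each). Peg12 was above Ndn in 3 of 4 libraries (exact sign-flip test, p = 0.75), and Ndn above Mkrn3 in 3 of 4 (exact sign-flip test, p = 0.375). Peg12 and Mkrn3 were not compared. Since 0.125 is the smallest p of 4 libraries, these values do not show that the levels are equal. Each other step was of the same direction in 4 of 4 libraries (exact sign-flip test, p = 0.125, adjusted p = 0.188 over 6 steps). The top of this order depends on the gene length in the RPKM. Atp10a was divided by 688 bp, the length of a short transcript of 2 exons, while its annotated exons together span 5587 bp. Ube3a was divided by 3889 bp of 20626 bp. With the length of all annotated exons, Ube3a had 3.17 and Atp10a 1.22 RPKM, and Atp10a fell below Peg12, Ndn and Mkrn3. Since a read counts only where it covers a SNP, the density of SNPs in a gene enters its level as well.

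**Figure D2:**
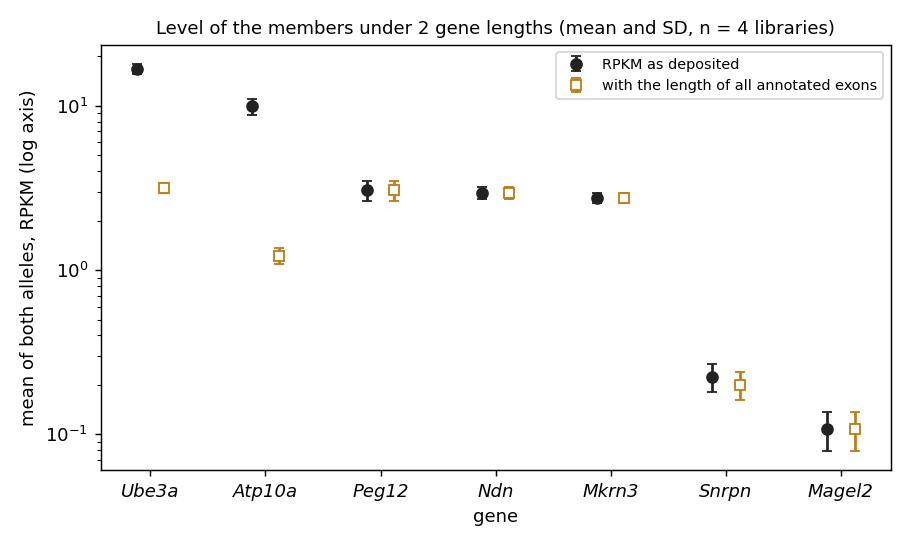
Level of 7 members (mean of both alleles, RPKM on a log axis) with the length behind the deposited RPKM (filled circles) and with the length of all annotated exons (open squares). Points are means and bars the SD over 4 libraries. Ube3a moves from 16.8 to 3.17 RPKM and Atp10a from 9.92 to 1.22 RPKM, while the single-exon genes keep their place.

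Other imprinted genes had S129 shares over a wide range. The median share was 50.5% over 11377 autosomal genes with at least 400 reads, and 50.5% over the 947 of them on chromosome 7. Of 9 tested paternally expressed genes of other domains, 7 were called higher on CAST and 0 higher on S129. Peg3, a zinc finger gene on proximal chromosome 7, had 4.49 ± 0.16 RPKM on S129 and 39.8 ± 2.6 RPKM on CAST (SD, n = 4 each), with 10.4% of its reads on S129. Usp29 and Peg13 had 16.6% and 18.0% on S129, whereas Mest had 43.3%, Peg10 45.1% and Plagl1 49.6%. Of 6 tested maternally expressed genes, 5 were called higher on S129 and 0 higher on CAST, with shares from 53.5% for H19 to 81.1% for Meg3 among those called. Both counts stand beside the 31.3% of all genes tested that were called higher on CAST and the 31.4% called higher on S129.

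**Figure D3:**
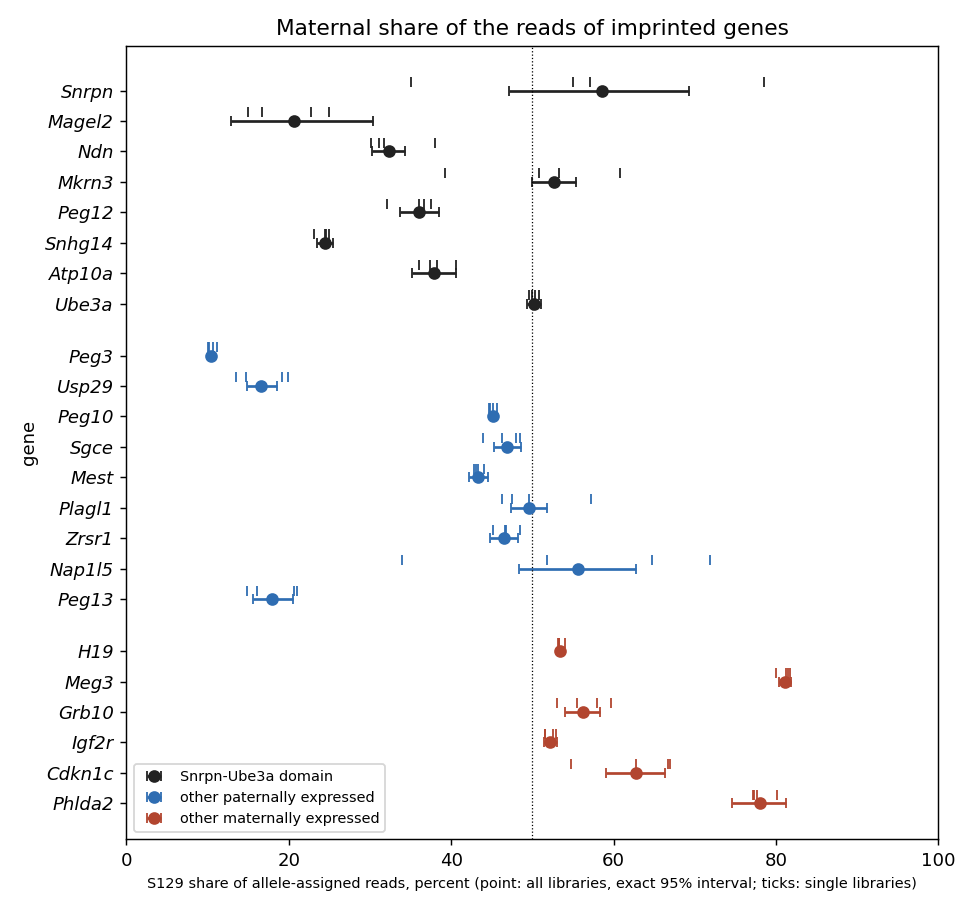
S129 share of the allele-assigned reads, in percent, of the domain (black) and of paternally (blue) and maternally (red) expressed genes of other domains. Points are the reads of all 4 libraries with their exact 95% interval, ticks are single libraries, and the dotted line marks 50%. Ndn, Magel2, Peg12, Snhg14 and Atp10a lie between 20.7% and 37.9%, above the 10.4% of Peg3, and Ube3a lies at 50.2%.

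The allele difference of Ndn was smaller than that of Peg3, on the log2(RPKM+0.1) scale, by 2.06 ± 0.17 (SD, n = 4; exact sign-flip test, p = 0.125, adjusted p = 0.143), in 4 of 4 libraries. That of Snhg14 was smaller than that of Peg3 by 1.44 ± 0.14 (SD, n = 4; exact sign-flip test, p = 0.125, adjusted p = 0.143), also in 4 of 4. Differences as low as that of Ndn or lower were found in 5.36% of 12869 autosomal genes tested, as low as that of Peg12 in 7.72%, as low as that of Atp10a in 10.2% and as low as that of Snhg14 in 2.28%. Gon7, Ptgs1 and Pld1, on other chromosomes, had the pattern over 4 libraries most like that of Ndn, with log2 differences of -1.03, -1.02 and -1.02. Those most like Snrpn were Mir30c-2, Gm3086 and Ppp4c, but at Euclidean distances of 0.502 to 0.639 these were not close, whereas Gon7 lay at 0.0877 from Ndn.

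Of 21 genes on either side of the domain, 17 were tested, and 8 were called higher on CAST and 6 higher on S129, with a median difference of -0.078. Over all genes tested, 31.3% were called higher on CAST and 31.4% higher on S129, so calls in both directions are not particular to these neighbours. The 8 on CAST became 4 without replicate 3, 5 without replicate 2 and 5 without pairing the alleles by library. Proximal to Atp10a, the magnesium transporter gene Nipa1 had 1.28 ± 0.12 RPKM on S129 and 0.904 ± 0.18 RPKM on CAST (SD, n = 4 each; log2 difference 0.47, adjusted p = 0.0067 from limma). Herc2, a giant ubiquitin ligase gene, was nearly even with 212 ± 11 RPKM on S129 and 224 ± 8.0 RPKM on CAST (SD, n = 4 each; adjusted p = 0.0906 from limma). Both values of Herc2 rest on a length of 476 bp, while its annotated exons together span 16175 bp. Distal to Peg12, the channel gene Trpm1 had 1.04 ± 0.20 RPKM on S129 and 2.71 ± 0.29 RPKM on CAST (SD, n = 4 each; log2 difference -1.32, adjusted p = 0.00109 from limma). The difference of Trpm1 was further from 0 than that of Ndn in the fit, and the difference between these genes was not tested. Tjp1, for a tight junction protein, was higher on S129 by 1.34-fold (log2 difference 0.42, adjusted p = 0.00104 from limma).

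**Figure D4:**
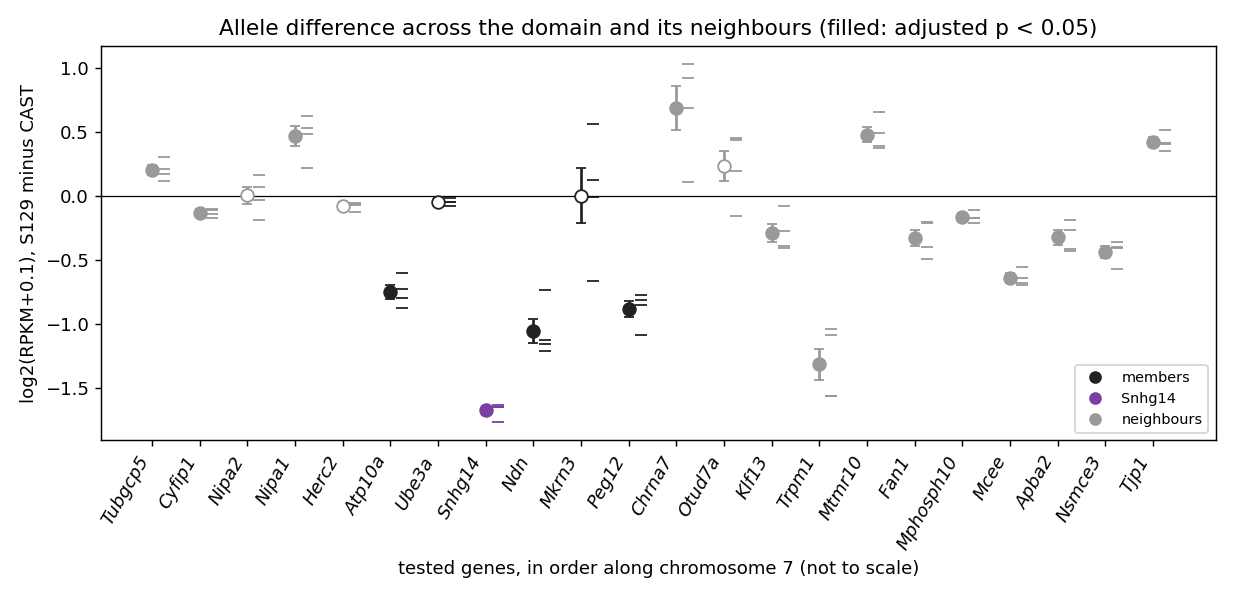
Allele difference (log2(RPKM+0.1), S129 minus CAST) of tested genes of the domain and its neighbours in their order along chromosome 7, not to scale. Circles are means with the SE from limma, filled where the adjusted p is under 0.05, and ticks are single libraries, and 1 tested neighbour is not drawn. Ndn, Peg12, Atp10a and Snhg14 lie below 0, Ube3a and Mkrn3 at 0, and neighbours such as Nipa1 at 0.47 and Trpm1 at -1.32 lie on both sides.

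Genes whose products act with those of the members are given beside the 62.7% of all genes tested that were called in either direction. Of 8 Sm core genes, 3 were called higher on CAST and 1 higher on S129, with a median of -0.20. Snrpb was among the former, with 52.3 ± 4.7 RPKM on S129 and 70.2 ± 3.8 RPKM on CAST (SD, n = 4 each). Of 7 genes for partners of MAGEL2, 2 were called higher on each allele. Usp7 was higher on S129 by 1.58-fold and the WASH complex gene Washc3 higher on CAST by 1.59-fold. All 7 had at least 8.67 RPKM as the mean of both alleles, against 0.108 RPKM of Magel2. This contrast also depends on the gene length in the RPKM and on the density of SNPs. Washc3 was divided by 1052 bp of 4536 bp of annotated exons, and Magel2 by all of its 4631 bp. Of 7 genes that keep imprints, 4 were called higher on CAST and 3 higher on S129. All were expressed, from 19.5 RPKM for Setdb1, a histone methyltransferase gene, to 1310 RPKM for Trim28, a corepressor gene. These levels and their order depend on the gene length in the RPKM. Trim28 was divided by 851 bp of 4158 bp of annotated exons, and Setdb1 by 5652 bp of 6853 bp. Zfp57, whose protein binds methylated control regions, had 25.3 ± 0.98 RPKM (SD, n = 4).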

How the data were processed

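RNAseq of untreated F123-ESCs was examined in 4 libraries of one group. The authors removed ribosomal RNA reads, trimmed the rest with Trimmomatic 0.40, mapped them with STAR to mm10 masked at the SNPs, divided them by SNPsplit, and deposited RPKM per gene and allele, which were used here. Averages over libraries and their log10 values, also deposited, were not used. The read counter, the annotation and the use of strand are not given in the sources used here. Genes were matched to GENCODE M21 (23995 of 24026). Reads were recovered from the steps of the RPKM for 99.5% of the genes above 0, as whole numbers within 0.02. Alleles were compared with limma 3.58.1 (R 4.3.3) on within-library differences of log2(RPKM+0.1), which understates changes of low genes, for genes whose allele RPKM add up to 1 or more. Alleles were paired because both values of a number are from the same library, and the deviations of columns of one number correlated at 0.105 to 0.195, and those of different numbers at -0.155 to 0.140 (13341 genes). limma was tested on simulated data. Near copies were searched with blastn, and promoters were taken from RefSeq. Members, lists and named genes (the members, their neighbours, noncoding RNAs, partners, imprint regulators, other imprinted genes and the 3 genes nearest in pattern) were chosen with earlier results of these data known. Alternatives were other pseudocounts, filters, centring, a variance trend, autosomal genes alone, no pairing and each library left out. Added after seeing the data were reads not divided by the total, centring on chromosome 7, exon-union lengths, further gene pairs and Ndn as the target of the nearest pattern.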

Additional observations from a re-analysis of the deposited data

Results flagged for a closer look

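In 4 of 32 quantities of the domain, one library stood apart from the other 3 by Dixon's criterion, where chance gives about 1.6 if all are independent. They are not, since the level of a gene is the mean of both its alleles. The flags of Peg12 are its level and both alleles in the same library, so the count does not show an excess over chance. The level of Atp10a was 11.6 RPKM in replicate 2, against 9.28 to 9.48 RPKM in the others. Peg12 was low in replicate 4, with a level of 2.41 RPKM against 3.21 to 3.36 RPKM in the others. Both alleles of Peg12 were low there, S129 with 1.50 RPKM against 2.30 to 2.45 RPKM, and CAST with 3.31 RPKM against 4.12 to 4.26 RPKM. Replicate 4 also had the fewest reads, and the part of depth was not tested. Without replicate 4 the level of Peg12 was 3.29 RPKM, and without replicate 2 the level of Atp10a was 9.37 RPKM.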

How the results depend on the processing

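The calls of Ndn, Peg12, Atp10a and Snhg14 on CAST kept their direction and their adjusted p under 0.05 in all 14 alternatives run for each. The log2 difference lay between -1.17 and -0.80 for Ndn, -0.92 and -0.67 for Peg12, -0.80 and -0.68 for Atp10a, and -1.70 and -1.52 for Snhg14, with the largest adjusted p of 0.0082 from limma for Ndn. Without a replicate block, that is without pairing by library, 3 members were still called on CAST, while calls over all genes fell to 3292 on S129 and 3133 on CAST, and neighbours called on CAST to 5. The latter were 4 to 6 when a library was left out, and neighbours called on S129 were 3 with at least 5 RPKM required. With reads not divided by the total, 4664 genes were called on S129 and 3571 on CAST of 13337, and the difference of Ube3a turned to 0.0091 and that of Plagl1 to 0.0088. Leaving out each library in turn, the difference ran from -0.18 to 0.23 for Mkrn3, -0.048 to 0.070 for Nipa2, -0.18 to 0.031 for Plagl1 and -0.047 to 0.68 for Nap1l5, so their signs turned. None of these 4 was called in the reported fit. The level taken from the higher allele alone was 12.5 RPKM for Atp10a, 3.99 for Peg12, 4.01 for Ndn and 0.174 for Magel2. With all annotated exons as the length, the mean of both alleles was 3.17 RPKM for Ube3a and 1.22 for Atp10a. The S129 share of Ube3a was 49.2% from the RPKM in place of reads. The cause of the changed neighbour counts was not tested. Snrpn and Magel2 rest on 82 and 92 reads in all, so their shares have the widest counting intervals among the members.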
